A study of Oryza sativa with 12 samples.

Results

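Cis and trans effects on transcript levels were separated in roots of the super-hybrid rice Xieyou9308 at the tillering stage, by setting the allele ratio in the hybrid against the ratio between its parents R9308 (male, a restorer line of partly japonica descent) and Xieqingzao B (female, an indica line). Members were the transcripts with at least 1 site at which each parent showed a single base, the bases differed, each parent had 10 or more reads, and the hybrid showed both bases with 44 or more reads. Of 28182 transcripts in the deposited table, 3685 qualified, from 3610 loci, with 9045 of 249857 sites. The series holds 12 root samples of the 3 genotypes at the tillering and heading stages, 2 roots for each genotype and stage, from plants raised in the field and then floated on nutrient solution. The 6 tillering samples reached the table as 3 pooled columns, so no spread between roots could be computed, and every interval and test below covers counting error in these pools only. Copies of a molecule made by PCR cannot be told from separate molecules here. Identifiers in the table are not paired with gene names, so the root label was not checked against marker genes.

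A cis difference lies in the gene copy itself, for instance in its promoter or in what sets the stability of its transcript, and it stays with the allele when both alleles share a nucleus. A trans difference lies in a diffusible regulator, which acts on both alleles of the hybrid alike, so that unequal parents give a balanced hybrid. The log2 ratio of R9308 to Xieqingzao B reads was therefore taken at the best covered site of each transcript, once from the allele reads of the hybrid and once from the depth of each parent over its column sum at the 9045 sites. A transcript was classed as cis when the hybrid allele ratio differed from 1 and did not differ from the parental ratio, as trans when only the second difference was called, as both when both were called, and as neither otherwise. Calls rest on exact tests with Benjamini-Hochberg adjustment over all 3685 transcripts at 0.05. A site is written as the reference (REF, Nipponbare) base, the position that the table gives within the transcript, and the base of the parent without the REF base.

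At the member sites the column sums were 1317130 reads in R9308, 916820 in Xieqingzao B and 1076628 in Xieyou9308. At the best covered site the median was 115 reads in R9308, 83 in Xieqingzao B and 101 in the hybrid. Of the members, 1819 rested on a single site and 1866 on several, up to 44. R9308 had the REF base at 7396 sites and Xieqingzao B at 1649, and at the best covered site these were 2945 and 740 transcripts. The 763 sites with 44 to 48 hybrid reads had a median REF base share of 54.5% (quartiles 45.7% and 62.5%), and the 869 otherwise qualifying sites with 39 to 43 reads, just outside, had 50% (40.5% and 59.0%). Read pairs that resemble calendar dates total up to 43 reads, so of these bands only the lower can hold them. Their part in this contrast was not tested.

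In the hybrid, 578 transcripts had more R9308 than Xieqingzao B reads and 278 fewer (exact binomial test, adjusted p under 0.05). These were 15.7% and 7.54% of the 3685 transcripts, and 23.2% together. Which side they fell on went with the parent that had the REF base. Where R9308 had it, 23.8% of the transcripts were called, 541 towards R9308 (18.4%) and 159 towards Xieqingzao B (5.4%). The R9308 share of these calls was 77.3%. Where Xieqingzao B had it, 21.1% were called, 37 towards R9308 (5%) and 119 towards Xieqingzao B (16.1%), a share of 23.7%. Over all reads, 53.8% carried the R9308 allele at sites with the R9308 REF base and 44.9% at the others. The median log2 allele ratio was 0.16 and -0.17 in these groups.

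**Figure D1:**
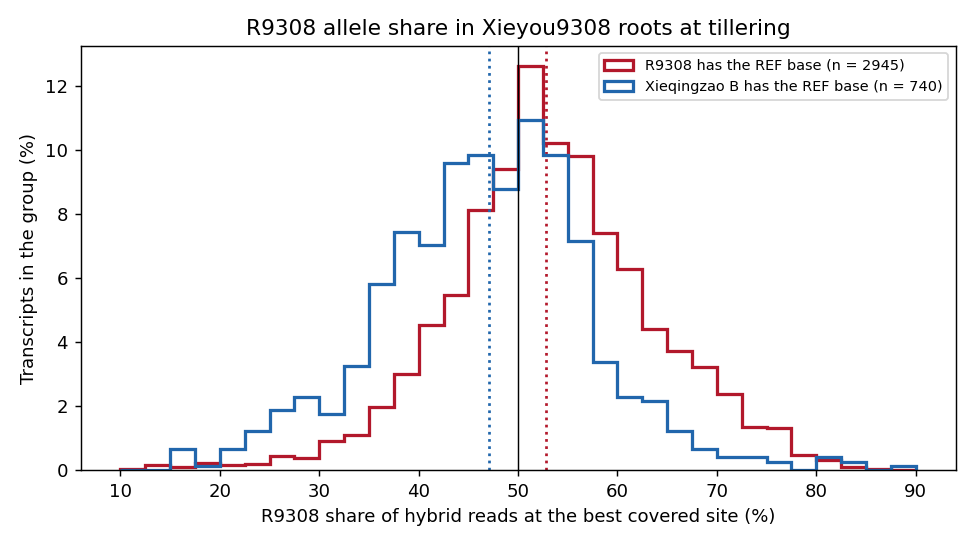
R9308 share of the hybrid reads (x axis, %) at the best covered site, as the percentage of transcripts in each group (y axis), for sites where R9308 (2945 transcripts) or Xieqingzao B (740) has the REF base. Dotted lines are the group medians and lie on opposite sides of 50%, and the distributions overlap widely.

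The parents differed at 1631 transcripts, 44.3% of those tested, 703 (19.1%) higher in R9308 and 928 (25.2%) higher in Xieqingzao B (exact binomial test against the share set by the column sums). This test compares the pooled libraries, not the lines. Again the direction went with the REF base. Where R9308 had it, 42.9% were called, 659 higher in R9308 (22.4%) and 603 higher in Xieqingzao B (20.5%). Where Xieqingzao B had it, 49.9% were called, 44 (5.95%) and 325 (43.9%). The median parental log2 ratio was -0.0019 in the first group and -0.40 in the second. The shift between the groups was thus 0.33 in the hybrid and 0.40 in the parents, and it was -0.06 in the difference between hybrid and parental ratio, whose medians were 0.20 and 0.25. How much of the allele ratios comes from reads with the REF base mapping more readily to Nipponbare was not tested.

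The hybrid ratio differed from the parental ratio in 457 transcripts, 12.4% of those tested (exact conditional test). It was higher in 358 (9.72%) and lower in 99 (2.69%). Where R9308 had the REF base 12.1% were called, 273 higher (9.27%) and 82 lower (2.78%), and where Xieqingzao B had it 13.8%, 85 higher (11.5%) and 17 lower (2.3%). This split depended on the scale given to the parents. The column sums of R9308 and Xieqingzao B stood at a ratio of 1.55 over the sites with the R9308 REF base and of 0.99 over those with the Xieqingzao B REF base. With the parental ratios centred on their median the split was 248 higher and 117 lower, and with column sums over all sites read in both parents it was 235 and 122. With only sites of the R9308 REF base and their own sums it was 394 and 71, and with only sites of the Xieqingzao B REF base it turned to 15 and 89. With both ratios centred within each REF group, a setting chosen after the values were seen, it was 155 and 153. The direction of this difference over all transcripts is therefore not settled by these data.

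**Figure D2:**
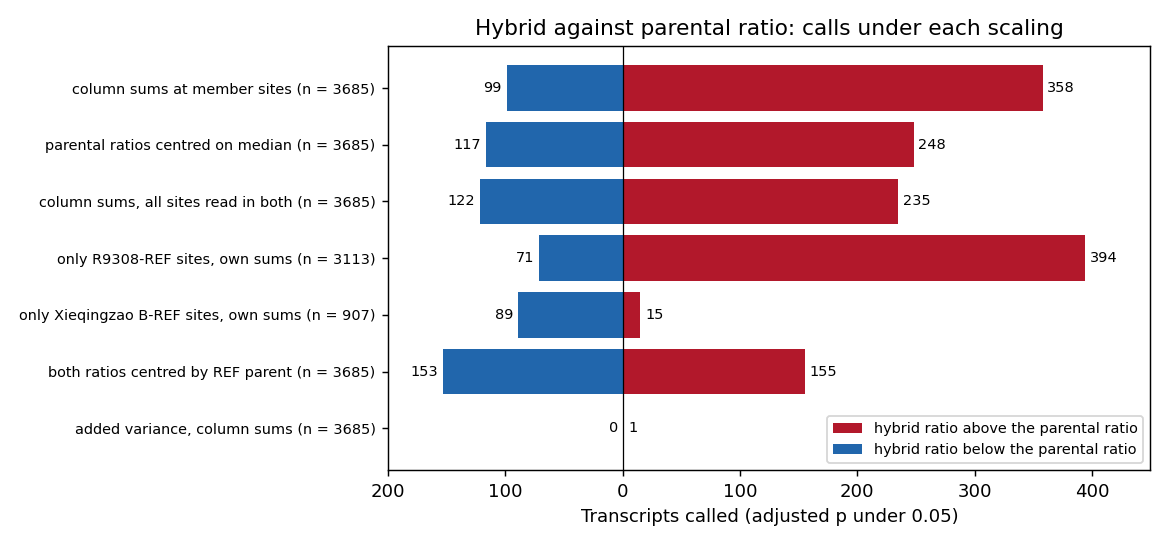
Number of transcripts (x axis) in which the hybrid ratio was called above (right) or below (left) the parental ratio, for 7 choices of scale or test (y axis, with the transcripts tested). The split runs from 394 above and 71 below with only sites of the R9308 REF base to 15 above and 89 below with only sites of the Xieqingzao B REF base. With added variance, which takes the hybrid and parental spreads as independent, 1 transcript is called.

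By these calls 673 transcripts were cis (18.3%), 274 were trans (7.44%), 183 were both (4.97%) and 2555 were neither (69.3%). The parental test does not enter the classes. Of the transcripts in neither class, 307 were called higher in R9308 and 488 higher in Xieqingzao B between the parents, and 1760 were not called. In 190 of the cis transcripts the parents were not called different. Where R9308 had the REF base, 19.0% were cis, 7.33% trans and 4.72% both. Where Xieqingzao B had it, these were 15.1%, 7.84% and 5.95%. Within the cis class the allele with more reads changed with the REF base, R9308 in 438 of 561 and in 22 of 112. These counts rest on counting error alone. Sites of the same transcript varied more than that, with an overdispersion of 0.014 in the hybrid and 0.016 in the parents. With this spread added to the tests, 129 transcripts were cis, 1 was trans and 0 were both. Of these 129, 91 were cis by the exact tests, and the trans one, Os10t0452900-00, had been called both. It was the 1 call for the ratio difference, against 457 calls and 918 transcripts at an unadjusted p under 0.05 in the exact test. For this difference the hybrid and parental spreads were added as if independent, and a normal approximation replaced the exact test. Between the best covered and the second site the median change was 0.32 in the ratio difference. It was 0.37 in the hybrid ratio and 0.35 in the parental ratio. Whether the ratio difference itself varies beyond counting error was not tested.

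**Figure D3:**
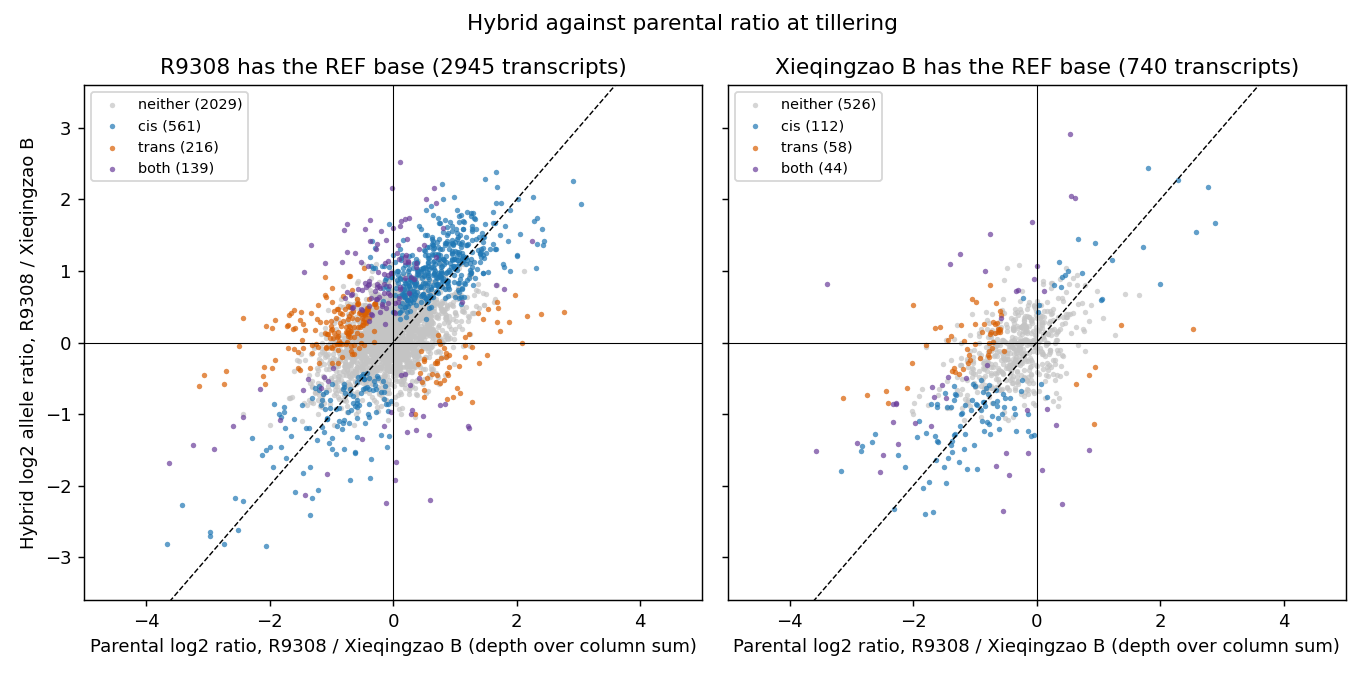
Hybrid log2 allele ratio (y axis) against the parental log2 ratio (x axis) for each transcript, coloured by class, where R9308 (left, 2945 transcripts) or Xieqingzao B (right, 740) has the REF base. The dashed line marks equal ratios. By the class rule, cis transcripts follow it and trans transcripts lie near a hybrid ratio of 0. The cloud of the right panel lies further to the left.

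The class also went with depth. With 44 to 99 hybrid reads 14.8% of the transcripts were cis, 4.51% trans and 2.75% both, and with 200 or more reads these were 23.0%, 14.5% and 12.2%. The smallest allele ratio called was 1.72-fold in the first group and 1.20-fold in the second. A cis call also rests on a difference that was not detected. The 95% interval of the hybrid over the parental ratio lay within 1.5-fold either way in only 52 of the 673 cis transcripts and within 2-fold in 289. Of the 2555 transcripts in neither class, 92 had the intervals of both the allele ratio and this difference within 1.5-fold, and 849 within 2-fold.

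Among the 673 cis transcripts 460 had more reads from R9308 and 213 from Xieqingzao B, and the alleles differed by 2.05-fold in the median. The parents were called different on the same side in 483 of them and on the other side in 0, which the class rule nearly fixes. Where the parental log2 ratio was beyond 0.5 either way, hybrid medians lay closer to 0 than parental ones. Counting error in the parental ratio, on which the transcripts were grouped, acts in that direction, its part was not tested, and the 2 sides depend on the parental scale. In the 207 transcripts with a parental log2 ratio of 1 to 2, the median was 1.24 in the parents and 0.99 in the hybrid, and 61.4% were cis and 10.1% trans. In the 298 transcripts with -2 to -1, the medians were -1.24 and -0.52, and 27.2% were cis and 22.1% trans. Across the 3685 transcripts the hybrid and parental log2 ratios had a Pearson correlation of 0.60 and a Spearman correlation of 0.54, and within the REF groups Pearson's r was 0.58 and 0.56. Transcripts are not replicates, and both ratios come from the same sites and the same mapping.

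Of the 3 cis transcripts with the lowest p on the R9308 side, Os06t0124900-01 on chromosome 6 (G274A, R9308 REF) had 549 R9308 and 272 Xieqingzao B reads in the hybrid and 1030 and 350 reads in the parents. The log2 ratios were 1.01 ± 0.11 (SE from read counts) and 1.03 ± 0.09, the closest match among these transcripts. Os09t0551600-01 (C665T, R9308 REF) had 808 and 464 hybrid reads and 641 and 285 parental reads. Os04t0149400-01 (G254C, R9308 REF) had 168 and 35 hybrid reads and 1694 and 156 parental reads, so the allele ratio of 4.80-fold lay below the parental ratio of 7.56-fold without a call (exact conditional test, adjusted p = 0.146). Where Xieqingzao B had the REF base, the lowest p on the R9308 side was that of Os12t0575200-02 (T341G) with 337 and 196 hybrid reads and 244 and 129 parental reads. This allele ratio of 1.72-fold therefore ran against the REF base.

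On the Xieqingzao B side all 3 leading cis transcripts had the REF base in Xieqingzao B. Os03t0327600-01 (A1313G) had 748 R9308 and 1439 Xieqingzao B reads in the hybrid and 960 and 1394 in the parents, and its other site lay on the same side (log2 ratio -0.93 against -0.94). Os12t0569200-01 (C180G) had 412 and 753 hybrid reads, but 614 and 445 at its second site, which puts the bias on the other side. Os01t0141000-01 (G1380A) had 147 and 364 hybrid reads, and 3 of its 5 other sites lay on the same side. A call at a single site was therefore not always that of the transcript.

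Of the 274 trans transcripts, 213 had a hybrid ratio above the parental ratio and 61 below, a split that depended on the scale as above. It was 145 and 74 with the parental ratios centred, 90 and 92 with both ratios centred within each REF group, and 7 and 55 with only sites of the Xieqingzao B REF base. With the column sums, the median log2 ratio of the first group was -0.87 in the parents and 0.18 in the hybrid, and 201 were called higher in Xieqingzao B. In the second it was 0.90 and -0.23, and 59 were called higher in R9308. Os04t0350100-01 (T468G, R9308 REF) had 41 and 56 reads in the hybrid against 69 in R9308 and 399 in Xieqingzao B, and all 5 other sites gave a hybrid ratio above the parental one. Os07t0622700-01 (A1225C, R9308 REF) had 100 and 80 hybrid reads against 52 and 136, and Os05t0138000-01 (C100G, R9308 REF) had 140 and 121 against 92 and 192. At these sites the hybrid was near balance although Xieqingzao B exceeded R9308 by 3.00-fold to 8.31-fold. Other sites were far from it: the hybrid had 21 and 60 reads at the second site of Os05t0138000-01, and 10 and 46 and 12 and 43 at a pair of sites of Os04t0350100-01. With the REF base in Xieqingzao B, Os02t0181900-01 (T2919C) led with 121 and 84 hybrid reads against 27 and 75, and its allele ratio missed the call narrowly (exact binomial test, adjusted p = 0.0502).

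In the other direction, Os06t0147400-01 (T498G, R9308 REF) had 77 and 69 hybrid reads against 299 in R9308 and 63 in Xieqingzao B, and the hybrid ratio was below the parental one at all 8 other sites. Os08t0386200-01 (G145A, R9308 REF) had 34 reads of each allele against 432 and 71. Os12t0547600-01 (G1921A, R9308 REF) had 189 and 174 hybrid reads against 485 and 144. With the REF base in Xieqingzao B, Os12t0159000-01 (A810T) had 127 and 107 hybrid reads against 429 and 116. At these 4 sites the R9308 share of the hybrid reads lay between 50% and 54.3%. The other 8 sites of Os06t0147400-01 all leaned further to R9308, with log2 allele ratios from 0.26 to 1.32 against 0.16.

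In the class called both, the R9308 allele was higher in 118 of 183 and the Xieqingzao B allele in 65. In 35 the parental ratio was larger than the allele ratio on the same side, and in 148 it was smaller or on the other side. The hybrid reads enter both the allele ratio and the difference from the parents, so counting error in them moves both to the same side. Of 108 such transcripts with a second site, 89 were of the second kind, and 81 were when the difference was taken from the second site. Os06t0287000-00 (A2391C, R9308 REF) had 75 R9308 and 13 Xieqingzao B reads in the hybrid, with 147 and 95 in the parents. Os08t0151400-01 (C206T, R9308 REF) had 294 and 114 hybrid reads against 242 and 160, and Os01t0211600-01 (T1205C, R9308 REF) had 113 and 36 against 60 and 70. The alleles were unequal here while the parents, scaled by depth, differed by at most 1.68-fold.

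Towards Xieqingzao B, Os12t0582700-01 (C1481G, Xieqingzao B REF) had 206 and 546 hybrid reads against 168 and 881 in the parents, an allele ratio of 2.65-fold and a parental ratio of 7.53-fold. Os08t0395700-01 (T907C, Xieqingzao B REF) had 280 and 982 against 631 and 2559, and its second site gave a log2 allele ratio of -1.75 against -1.81. Os11t0266500-01 (C3049A, Xieqingzao B REF) had 14 and 67 hybrid reads although R9308 exceeded Xieqingzao B with 407 and 213 reads. At these sites the first pair kept part of the parental difference, and the last lay on the other side. Of the 4 other sites of Os11t0266500-01, 3 also had more Xieqingzao B reads in the hybrid, and the remaining one had 25 and 19. With the REF base in Xieqingzao B and the R9308 allele higher, Os07t0563350-01 (C1242T) led with 170 and 92 hybrid reads against 355 and 254.

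The study lists 38 loci with an annotation, some only as a hypothetical gene or protein. It chose them on these libraries for strong allele bias, so their class counts are no independent evidence. Of these, 30 loci with 31 transcripts were members, 26 with the REF base in R9308 and 5 in Xieqingzao B, and in the other 8 loci no site with both bases passed 42 hybrid reads. There were 23 cis transcripts, 1 trans, 6 both and 1 neither, against 18.3%, 7.44%, 4.97% and 69.3% of all members. The hybrid bias was called in 29, 20 towards R9308 and 9 towards Xieqingzao B. The median size of the log2 ratio was 1.5 in the hybrid and 1.14 in the parents, against 0.38 and 0.43 over all 3685 transcripts. In 22 of the 23 cis transcripts the parents were called different on the same side.

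Resistance loci made up 7 of these transcripts, 5 cis, 1 both and 1 neither. Os07t0127700-01, similar to pathogenesis-related protein class 1, a secreted protein family induced in plant defence, had 71 R9308 and 23 Xieqingzao B reads in the hybrid and 182 and 36 in the parents (C228T, R9308 REF, cis). Os07t0129200-01, similar to PR1a of the same family, had 74 and 25 hybrid reads and 1402 and 504 parental reads (T510A, R9308 REF, cis). Os02t0272900-01 encodes an NB-ARC domain, the nucleotide-binding switch of intracellular immune receptors, and had 36 and 8 hybrid reads and 128 and 13 parental reads although Xieqingzao B had the REF base (G774T, cis). These 3 were higher from the R9308 allele by 2.96-fold to 4.50-fold. For Os02t0272900 the study puts the allele ratio below the ratio of total parental expression and proposes both cis and trans regulation. Here, with 44 hybrid reads at 1 site, that difference was not called. Os07t0617100-01, which belongs to a family of disease resistance response proteins, was cis towards Xieqingzao B with 8 and 36 hybrid reads and 193 and 332 parental reads (A252G, R9308 REF).

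The chitin elicitor receptor kinase, which perceives fungal chitin at the cell surface, had 2 transcripts of different class. Os09t0511000-02 was cis with 39 and 14 hybrid reads (A764G, R9308 REF), and Os09t0511000-01 was in neither class with 43 and 33 (G2466A, R9308 REF). The 2 other sites of Os09t0511000-01 leaned further to R9308, with 42 and 26 and with 35 and 11 hybrid reads. Their log2 allele ratios were 0.69 and 1.67, against 1.48 at the site of Os09t0511000-02, so the class depended on the site. The difference between these transcripts was not tested, and the intervals of their R9308 shares overlapped, 60.4% to 83.6% and 45.4% to 67.1%. Os11t0229300-00, similar to an NBS-LRR protein of the same immune receptor class, had 21 and 72 hybrid reads but 142 and 93 parental reads, a parental ratio of 1.06-fold (T1353C, Xieqingzao B REF), and was called both. All 6 other sites had more Xieqingzao B reads in the hybrid, but there the parents leaned to Xieqingzao B too, with parental log2 ratios from -2.37 to -0.69 against 0.09 at the best covered site. The ratio difference was smaller at each of them, from -0.97 to 0.61, so the near-equal parents were seen at the best covered site only. The study sets the allele ratio of Os11t0229300 against total parental expression, not the depth at 1 site. It finds these ratios alike and proposes an involvement of cis regulation, so its reading differs from the class given here.

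Among annotated regulators, Os02t0271900-01 with a Myb domain, the DNA-binding part of a plant transcription factor family, had 122 and 43 hybrid reads and 242 and 51 parental reads (G1561T, R9308 REF, cis), and all 8 other sites lay on the same side. Os10t0564900-01, similar to a regulatory subunit of the protein kinase CK2, was the trans member with 100 and 82 hybrid reads against 143 and 140 (A1167G, R9308 REF), with an adjusted p of 0.0467 in the exact conditional test and the opposite difference at its second site (log2 -0.40 against 0.78). Os11t0669100-01, annotated as calmodulin, a calcium sensor, had 196 and 99 hybrid reads at C447A (R9308 REF) but 19 and 60 at its other site, where Xieqingzao B had the REF base. Its side of the bias thus changed with the site. Os07t0158900-01, with an F-box as found in ubiquitin ligase subunits, was called both with 60 and 15 hybrid reads against 271 and 131 (C669A, R9308 REF).

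Among annotated enzymes, Os06t0143400-01, similar to acyl-ACP thioesterase, which releases fatty acids in plastids, had 178 and 63 hybrid reads against 272 and 103 (G1316A, R9308 REF, cis). Os07t0638400-01, similar to a 1-Cys peroxiredoxin, which reduces peroxides, had 56 and 21 against 443 and 85 (A67C, R9308 REF, cis). Os04t0474300-01, a family 1 glycoside hydrolase, had 53 and 7 hybrid reads although Xieqingzao B had the REF base, against 73 and 35 in the parents (A1250G, both). Its R9308 share of 88.3% (Wilson interval 77.8% to 94.2%) was the highest of the annotated transcripts. Os03t0829200-01, similar to soluble epoxide hydrolase, had 65 and 231 against 277 and 406 (C1175T, R9308 REF, both). All 6 other sites had more Xieqingzao B reads in the hybrid, and the difference from the parents had the same side at 4 of them. The remaining annotated cis transcripts had R9308 shares from 12.2% to 75%, among them a tRNA methyltransferase subunit at 23.9%, a receptor-like protein kinase at 26.7% and 40S ribosomal protein S8 at 72.1%.

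**Figure D4:**
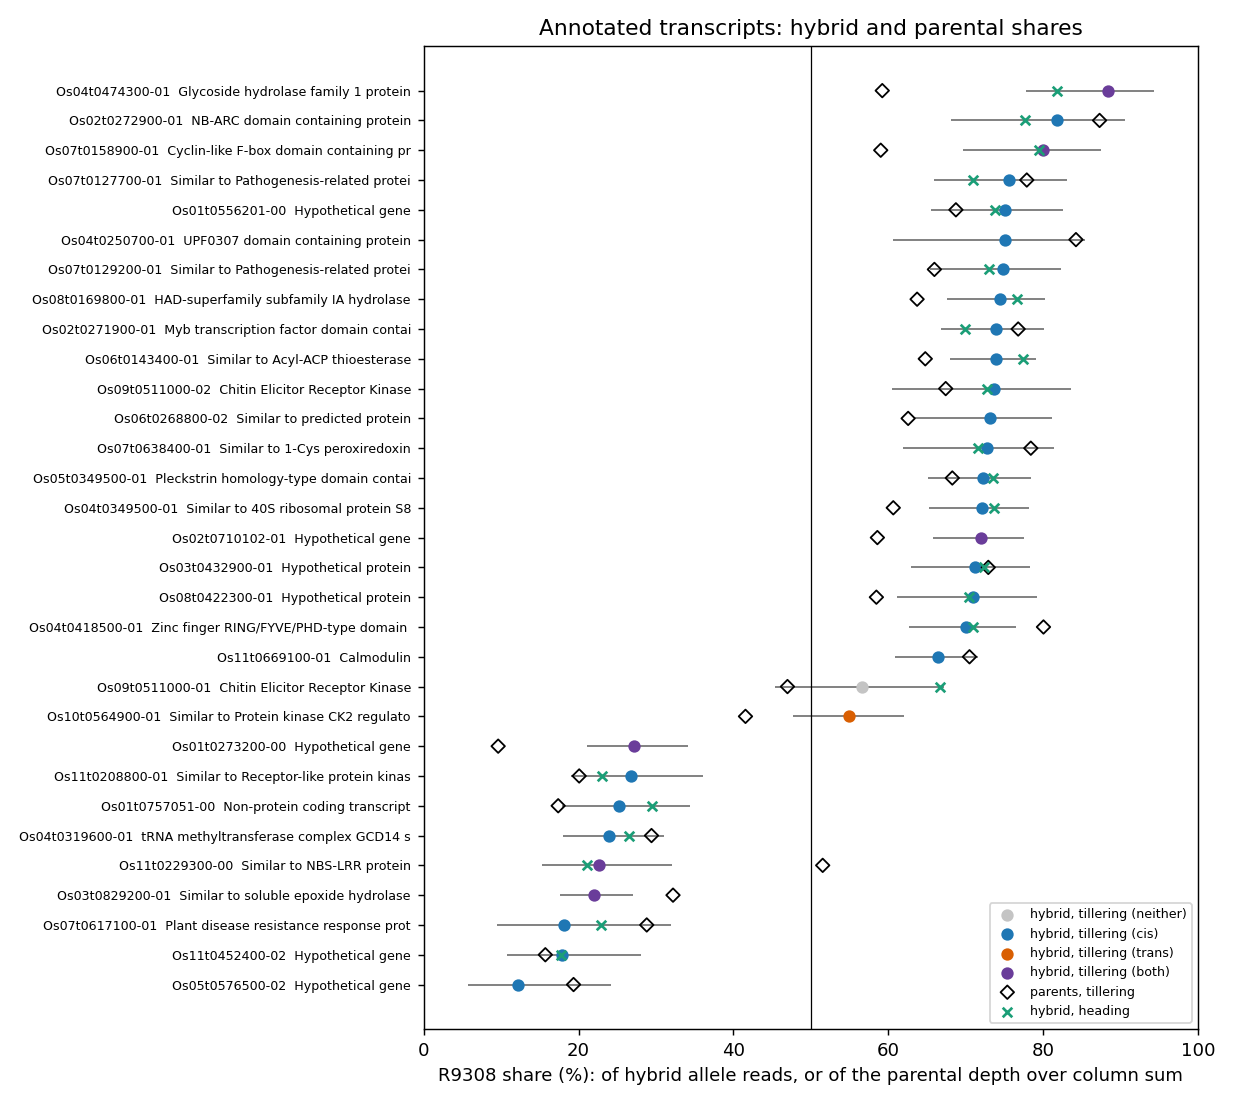
R9308 share of reads (x axis, %) of the 31 annotated transcripts (y axis) in the hybrid, with 95% Wilson intervals of the read counts, and in the parents after scaling by column sums. The shares of cis transcripts lie on the same side of 50% in hybrid and parents, while those of transcripts called both stand apart from each other. The class rule largely fixes this.

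The same sites could be compared at heading in 2171 transcripts with 44 or more hybrid reads there. Each genotype and stage is a separate pool, so stage and library cannot be told apart. The hybrid log2 allele ratio had a Pearson correlation of 0.64 between the stages, the parental ratio 0.39, and the difference between them -0.01 (Spearman 0.59, 0.37 and -0.02). The hybrid ratio was called different between stages in 11 transcripts, 0.507% of the 2171 (exact test, 219 at an unadjusted p under 0.05), the parental ratio in 783, 36.1%, and the difference in 304, 14% (exact conditional test of equal odds ratios).

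In the cis class, 361 of 388 transcripts (93.0%) had the allele ratio on the same side at heading, against 67.8% of all 2171. At heading 208 of these were called on the same side and 1 on the other, with 22.4% of all called in either direction. In the trans class, the difference between hybrid and parental ratio lay on the same side in 82 of 160 (51.2%), against 52.4% of all, and 22 were called on the same side and 32 on the other, with 22.8% of all called. Transcripts chosen for a called difference at tillering will tend to have a smaller one elsewhere, and its median size was 0.98 at tillering and 0.55 at heading. In the class called both, the allele ratio kept its side in 90 of 103 and the difference in 66. The hybrid bias thus recurred in a separate set of libraries, at the same sites and with the same mapping to Nipponbare. Any more ready mapping of reads with the REF base would recur as well, and its part was not tested. The trans difference kept its side no more often than over all transcripts.

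**Figure D5:**
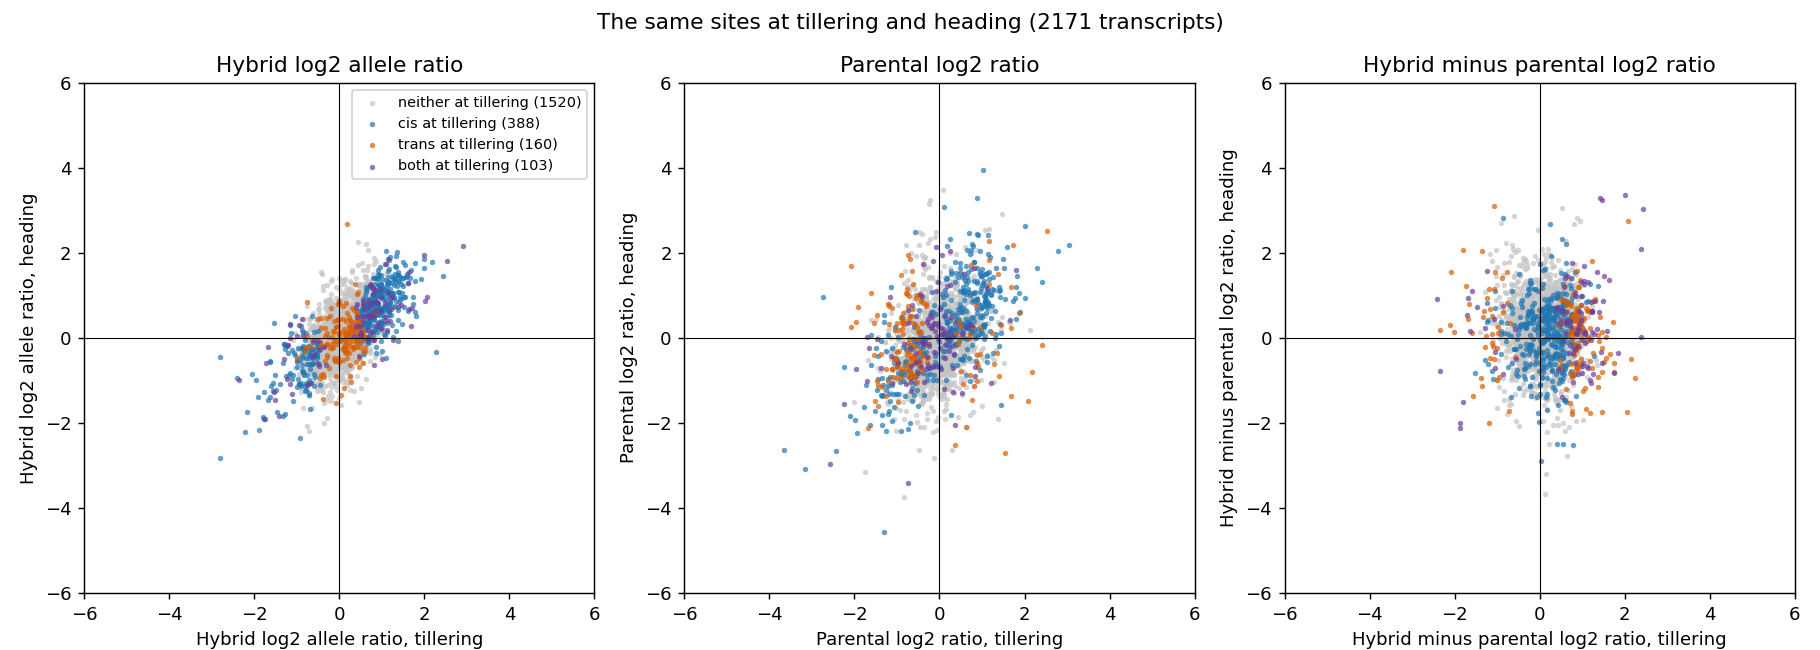
Values at heading (y axis) against tillering (x axis) at the same site of 2171 transcripts, coloured by tillering class. Panels show the hybrid log2 allele ratio (left), the parental log2 ratio (middle) and the hybrid minus the parental log2 ratio (right). The hybrid ratios lie along the diagonal (Pearson 0.64), the parental ratios less closely (0.39), and the differences do not (-0.01).

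Single transcripts showed both outcomes. Os06t0147400-01 was trans again at heading with 46 and 26 hybrid reads against 176 and 40 in the parents. Os08t0386200-01 was balanced again with 81 and 78 hybrid reads, but the parents had turned to 153 and 448 reads. Among the annotated transcripts, 23 could be compared and all 23 kept the side of the hybrid allele ratio, while 13 kept the side of the difference. The study chose these loci for allele bias at either stage and describes most as biased to the same allele at both, which largely fixes the first count. It also reports a few with different biases between stages, of UPF0307, ABC transporter and zinc finger RING-type annotation. The UPF0307 transcript Os04t0250700-01 could not be compared at heading here. Os08t0398000 (ABC transporter-like) and Os04t0403200 (zinc finger RING-type) were not members.

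A second site of the same transcript was present in 1866 members. It is read in the same libraries, and nearby sites can share fragments. The hybrid ratio had the same side at both sites in 66.5% and the difference from the parents in 73.1%. In the cis class the allele ratio kept its side in 279 of 362. This was 253 of 320 where the same parent had the REF base at both sites and 26 of 42 where the parents exchanged it. In the trans class the difference kept its side in 140 of 150 (93.3%), compared with 82 of 160 between stages. The trans difference was thus shared by sites within these libraries and not between stages.

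At 128 further sites in 60 transcripts the parents differed as above, and the hybrid, with 44 or more reads, showed only 1 of the bases. It was the R9308 base at 21 sites and the Xieqingzao B base at 107, and the REF base at 29. The parental log2 ratio had a median of 2.77 at the former and -2.70 at the latter. Os02t0807100-02 held 15 of these sites and Os02t0807200-00 held 12, each with the Xieqingzao B base alone. The members among these transcripts were 19, such as Os09t0356200-01 with 8 sites and Os03t0829200-01, the epoxide hydrolase above, with 6.

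By chromosome, taken from the transcript identifier, the share of cis transcripts ran from 14.2% on chromosome 8 to 25.4% on chromosome 6, where 83 of 327 were cis. The trans share ran from 5.39% on chromosome 9 to 12.0% on chromosome 10. Xieqingzao B had the REF base in 3.73% of the transcripts on chromosome 9 and in 40.8% on chromosome 12. Hybrid calls towards R9308 made up 75.8% on chromosome 9 and 50.8% on chromosome 11. The sites of the classes had transitions at 62.3% of cis, 63.5% of trans, 61.2% of both and 66.8% of neither, and a median of 3 sites with a parental difference in every class.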

How the data were processed

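Root RNA was sequenced as paired-end reads, and the submitters' processing notes list CASAVA 1.8 and SAMtools 0.1.16. The deposited table gives, for each transcript site and each of the 6 genotype and stage pools, the bases, the number of supporting reads (or a pair of read counts where 2 bases were seen) and a quality score, all as the authors made them after mapping to Nipponbare transcripts. The study's methods give its own site criteria (a consensus base in each parent, minimum reads in each parent and in the hybrid, presence at both stages, and a minimum quality score), but the deposited table also holds sites below them, down to 1 read and a quality score of 3.01. The roles of the listed tools in site calling are not given in the sources used here. Parents and hybrid were read from their own columns, with 0 value columns left out. Members and lists were chosen with earlier results of these data known.

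The hybrid allele ratio was tested with the exact binomial test against 50%, the parental ratio with the same test against the share set by the column sums, and their difference with an exact conditional test on the 4 read counts, all two-sided with Benjamini-Hochberg adjustment over 3685 transcripts (scipy 1.17.1 under Python 3.11.15, with pandas 2.3.3 and numpy 2.4.6 for tables). Between stages the hybrid ratio was tested with Fisher's exact test, and the parental ratio and the difference with exact conditional tests that were added after the data were seen. Standard errors come from the read counts, with log2 ratios on the same scale. The tests were checked on simulated data. Named transcripts were those that the study annotates and, in each class and direction, the 3 with the lowest p of the test that defines the class and the 1 with the lowest p where Xieqingzao B has the REF base. Read pairs in the table that resemble calendar dates total at most 43 reads, below the hybrid minimum of 44. Alternatives changed the scale, the REF parent, the depth and quality minimums, the site, the test and the threshold.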

Additional observations from a re-analysis of the deposited data

Results flagged for a closer look

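In 9 of the transcripts named above the difference between the hybrid and the parental log2 ratio was called different between tillering and heading (exact conditional test of equal odds ratios, with Benjamini-Hochberg adjustment over 2171 transcripts). With 1 pool for each genotype and stage, stage and library cannot be told apart, and no cause was tested. In the trans class it went from -2.08 to 1.55 in Os08t0386200-01 (exact test, adjusted p = 3.1e-11), from 2.23 to -0.94 in Os07t0622700-01 (8.2e-07), from -1.12 to 0.52 in Os12t0159000-01 (0.00011) and from -1.11 to 0.09 in Os12t0547600-01 (0.00055). In the hybrid itself the 4 transcripts stayed near balance, with log2 allele ratios of 0.05, -0.21, 0.16 and 0.22 at heading.

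Among transcripts called both, it went from 2.40 to 0.02 in Os01t0211600-01 (exact test, adjusted p = 0.0014) and from 1.47 to 3.25 in the F-box transcript Os07t0158900-01 (0.026). Among cis transcripts it went from 0.62 to -1.52 in the acyl-ACP thioesterase transcript Os06t0143400-01 (4.1e-06), from 0.61 to 2.20 in the PR1a transcript Os07t0129200-01 (0.026) and from -0.86 to 2.82 in Os07t0617100-01 of the disease resistance response family (3.9e-05). For the last, the parents had 193 and 332 reads at tillering and 13 and 319 at heading, while the hybrid had 8 and 36, then 25 and 84.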

How the results depend on the processing

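No paired analysis was possible because the roots of a genotype and stage are pooled in the table and its columns carry no replicate number, and no root could be left out in turn. With 16 planned settings and 1 added after the data were seen, counts moved as follows, given as hybrid bias, parental difference and ratio difference, then cis, trans, both and neither, for those more than 1.5 times from the main counts. With variance beyond counting error, taken as independent between hybrid and parents, they were 129, 284 and 1, then 129, 1 and 0. At the second best covered site they were 434, 832 and 189, then 359, 114, 75 and 1318, with fewer transcripts tested. With only sites where Xieqingzao B has the REF base they were 188, 409 and 104, then 146, 62, 42 and 657, again over fewer transcripts. With 100 or more hybrid reads the hybrid bias was called in 561, the parental difference in 977, and cis and neither held 419 and 1112. Only 1868 transcripts were tested there, so these lower counts are not lower shares. With reads summed over all sites the ratio difference was called in 835 and both held 424. At an adjusted p of 0.01 the ratio difference was called in 255, with 174 trans and 81 both. With both ratios centred by REF parent there were 182 trans. A 3-test scheme also required a parental call for cis and for trans, and no parental call for neither. It left 999 transcripts unclassed.

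Shares of calls towards R9308 moved with the scale. For the hybrid they were 62.7% (R9308 REF) and 12.8% (Xieqingzao B REF) with the expected share from the column sums, 58.3% and 40.8% with the median of the REF group, 69.4% (R9308 REF) with added variance and 16.5% (Xieqingzao B REF) with 44 or more reads in each parent. For the parents they were 60.7% and 15.8% with median centring, 63.3% and 17.6% with column sums over all sites, 40.2% and 57.7% with only the sites of each REF parent, where both changed side, 47.0% (R9308 REF, changed side) with added variance, and for Xieqingzao B REF 16.4% at the second site and 16.1% with summed reads. For the ratio difference they were 66.5% and 72.6% with median centring, 64.3% and 71.3% with column sums over all sites, 84.7% and 14.4% with only the sites of each REF parent, 49.2% and 54.7% with both ratios centred by REF parent, and 90.3% (Xieqingzao B REF) with 100 or more hybrid reads. Over all transcripts it was 67.9% with median centring, 65.8% with column sums over all sites, 84.7% and 14.4% with only the sites of each REF parent, 74.1% at the second site and 50.3% with both ratios centred. The cause of these moves was not tested.

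Of the values of named transcripts, 64 lost the call, 16 gained it and 8 changed sign with a call before or after. The other 1390 kept their call or stayed without one. A change of sign between values without a call was counted among these. At the second site the log2 allele ratio was -1.51 in Os05t0138000-01, -1.66 in Os11t0669100-01 (also with only Xieqingzao B REF sites) and 0.46 in Os12t0569200-01, and the ratio difference was -0.13 in Os07t0158900-01 and -0.40 in Os10t0564900-01. With only Xieqingzao B REF sites the ratio difference was -0.42 in Os03t0327600-01 and -0.43 in Os12t0569200-01. Depth limits the classes as given above: at 44 to 99 hybrid reads no allele ratio below 1.72-fold was called.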

Other observations

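The 11 transcripts whose hybrid allele ratio differed between tillering and heading (Fisher's exact test, adjusted p under 0.05) were looked up after their values were seen. They held 4 cis, 2 trans, 2 both and 3 neither by their tillering class. Os12t0123600-01 had 59 R9308 and 132 Xieqingzao B reads at tillering and 128 and 102 at heading (exact test, adjusted p = 0.00096). Os11t0668650-01 had 75 and 35 reads, then 110 and 152 (0.0051 in the exact test). Os03t0132900-01, with the REF base in Xieqingzao B, had 63 and 13 reads, then 23 and 29 (0.0053 in the exact test). The allele with more reads changed in each of these 3. Each stage is 1 pool of the hybrid, so stage and library cannot be told apart.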
